A study of Mus musculus with 8 samples.

Results

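The wild-type baseline of this study was the transcriptome of 4 pools of 2-cell mouse embryos, taken by their genotype label from a series of 8 pools. The other 4 pools, which carry a double knockout of Gadd45a and Gadd45b, entered no value given here. All 4 wild-type pools were of strain C57BL/6N and of wild-type genotype, so they carried no transgene or added allele. The mothers were 3 to 4 weeks old, were superovulated with hormones and mated naturally, and the embryos were collected 20 h after the vaginal plug was seen. Each pool held the embryos of 1 litter, numbered here by replicate: 23 embryos in litter 1, 30 in litter 2, 25 in litter 3 and 25 in litter 4. A pool mixes male and female embryos and embryos that may differ in their progress through the cell cycle, and single embryos cannot be read from it. The strain is inbred, so transcripts from the maternal and paternal copy of a gene cannot be told apart. In such pools, fewer embryos with a transcript and less of it per embryo cannot be told apart either.

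At the 2-cell stage the mouse embryo hands over control from the oocyte to itself. RNA stored during oocyte growth is stripped of its poly(A) tails and degraded, while the embryonic genome starts its main wave of transcription, with genes such as the Zscan4 cluster and transcripts driven by retrotransposon repeats that are then soon silenced again. Polyadenylated RNA was measured, so a level reflects both how much of a transcript there is and whether it carries a tail that the kit can prime.

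The deposited values were counts of reads per gene. To follow 1 gene across litters they are given as CPM, counts per 1000000 of the library total after scaling, and to compare different genes as TPM, which also divides by the length of a gene's exons. A gene is called detected where it reached 1 CPM in all 4 litters. Libraries held 21834809 to 23919114 counts, the mitochondrial genome took 6.02% to 8.32% of them and 18433 to 20243 genes had at least 1 count. Pearson's r of log2 CPM across the 7416 genes of mean 10 CPM or more was 0.959 to 0.981 between litters, and each pair of libraries differed by more than the counting error of reads (chi-square per degree of freedom 22.2 to 71.0), which does not cover PCR copies.

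Litter 1 stood apart in transcripts of red blood cells and in Ovgp1, a transcript of the oviduct. Hbb-bs, an adult beta globin, was at 66.8, 0.0904, 0.177 and 0.0867 CPM in litters 1 to 4, and Hba-a1, an alpha globin, at 43.1, 1.22, 2.39 and 2.08 CPM. Ovgp1, the secreted oviduct glycoprotein that coats eggs and early embryos, was at 56.3, 4.07, 5.96 and 3.12 CPM. Of the 4 oviduct markers of mean 10 CPM or more litter 1 was the highest for 2. The 14 blood cell markers together took 0.0157, 0.00114, 0.00143 and 0.000962% of the counts, so litter 1 was more than 10-fold above each other litter and the share was small in all of them. Litter 1 also had the fewest genes with a count, 18433. Of 12951 genes of mean 1 CPM or more, 22 were at least 4-fold above every other litter in litter 1, and 87 at least 4-fold below. In litters 2, 3 and 4 these numbers were 2, 2 and 3 above and 26, 25 and 55 below. The main values of the spread between litters are therefore given with and without litter 1.

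The transcriptome of these embryos was broad, and its counts were concentrated in few genes. In all, 11546 of 37310 genes in the tables were detected, among them 10524 of 20175 protein-coding genes (52.2%), and 3043 protein-coding genes had no count in any litter. At higher levels 6781 genes reached 10 CPM, 1892 reached 100 CPM and 77 reached 1000 CPM in all 4 litters. The 10 genes with most counts held 8.86% ± 0.933 (SD, n = 4 litters) of a library, and the first 100 held 23.3% to 24.9%. It took 593 ± 19.9 genes (SD, n = 4) to account for 50% of the counts. Protein-coding genes took 96.9% ± 0.203, processed pseudogenes 0.764% ± 0.0776, long intergenic RNAs 0.271% ± 0.0384 and antisense RNAs 0.208% ± 0.0217 of the counts (SD, n = 4). The sources used here do not state whether counting used strand, and antisense reads cannot be told from those of the gene they overlap.

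The most abundant transcripts per length were those of the mitochondrial genome and a small set of genes known from the oocyte. Of the 20 genes with the highest mean TPM 7 were mitochondrially encoded, and 15 genes were among the first 20 in every litter. In the first 100, 81 were shared by all litters. Among the 100 nuclear genes with the highest mean TPM, 12 came from the list of maternal oocyte transcripts, 1 from the list of embryonic 2-cell genes and 4 from the ribosomal proteins. These highly expressed genes were compact: the first 100 by TPM had a median of 1660.5 bases of exon and 5 exons, against 4231 bases and 9 exons for all 11207 detected genes with a length. TPM divides by length, so the shorter exons are partly built into this choice of genes.

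Dppa3 (also called Stella, ENSMUSG00000046323, chromosome 6), a maternal protein that protects the methylation of the maternal genome after fertilization, led the nuclear genes at 22627 ± 1670.5 TPM (SD, n = 4). Its level was 7449, 6843, 7714 and 8559 CPM in litters 1 to 4, a span of 1.25-fold from the lowest to the highest litter. Oog3 (ENSMUSG00000050810, chromosome 4), an oocyte member of a leucine-rich repeat family, stood at 5137, 5286, 4931 and 4360.1 CPM and at 6998 ± 704 TPM. Both were high in every litter, with litter 4 the highest for Dppa3 and the lowest for Oog3. The oocyte maturation transcripts Omt2a and Omt2b, whose work is little known, followed at 5139 ± 1113 and 3686 ± 845 TPM. Omt2a ran at 2424, 2956, 3662 and 2339 CPM and was highest in litter 3. Obox6, a homeobox gene of the oocyte and early embryo, reached 3220.2 ± 671 TPM, and Zbed3, a partner of the subcortical maternal complex, 3114 ± 756 TPM.

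The rest of the leading nuclear transcripts served basic cell functions. Calm2, which encodes the calcium sensor calmodulin, was at 6733 ± 416 TPM and at 3351, 3768, 3881 and 3947 CPM, a narrow span of 1.18-fold. Hprt, the purine salvage enzyme on the X chromosome, was at 4146 ± 726 TPM, with 1964, 1796, 1746 and 2594 CPM by litter. Prps1, which makes the ribose phosphate donor for purine and pyrimidine synthesis and also lies on the X chromosome, was at 3764 ± 641 TPM. Hprt and Prps1 were both highest in litter 4, and their other 3 litters lay close together. Gcsh, a carrier protein of the glycine cleavage system, was at 3998 ± 651 TPM, Selenos, a selenoprotein of the endoplasmic reticulum, at 3795 ± 343 TPM, and Rplp0, the stalk protein of the large ribosomal subunit, at 3691 ± 286 TPM. Gmnn, which encodes the replication licensing inhibitor geminin, stood at 2971 ± 448 TPM, and Mphosph6, a partner of the RNA exosome, at 2895 ± 729 TPM. By counts alone the order differs: Mdm4, an inhibitor of p53, ranked number 5 by mean CPM at 6683, 5897, 5961 and 6019 CPM but number 95 by TPM, since its exons add up to 14798 bases.

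Among the 10 highest genes were 2 processed pseudogenes, Gm5612 at 21207 ± 4076 TPM and Gm12617 at 7927 ± 1033 TPM. Gm5612 matched Map1lc3b, the autophagy protein LC3B, at 96.1% identity over 280 bases, and Map1lc3b itself was listed at 516 TPM. Reads of such copies can be assigned to either member, so the levels of both are uncertain. In the first 100 genes by TPM 6 were pseudogenes and 9 carried placeholder names.

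**Figure D1:**
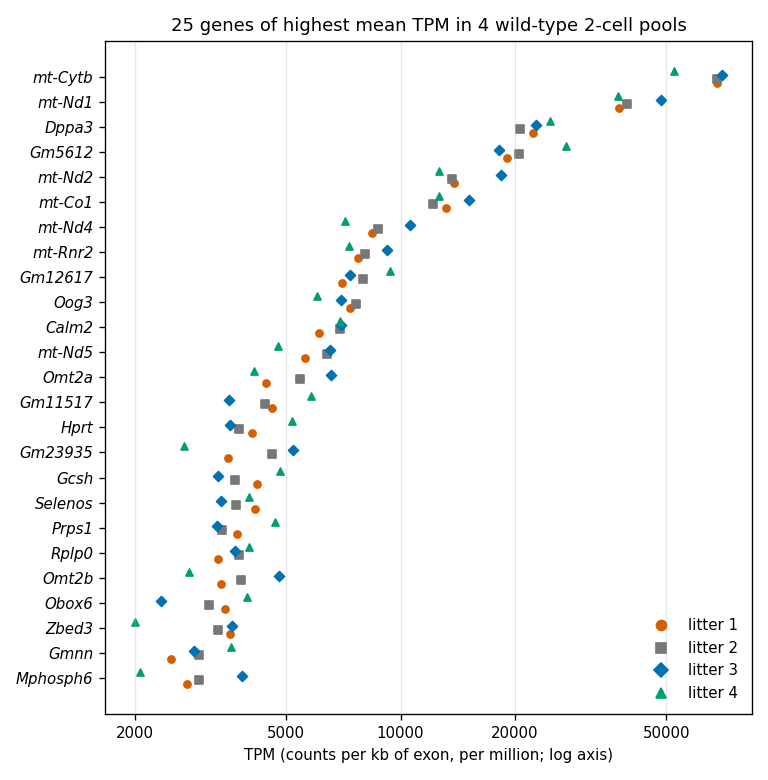
TPM on a log axis of the 25 genes with the highest mean TPM, 1 point per litter (n = 4), with symbols and colours marking the litters. mt-Cytb and mt-Nd1 lead, Dppa3 is the highest nuclear gene with 4 litters close together, and Zbed3, Omt2b and Mphosph6 have their lowest point in litter 4.

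The mitochondrial genome encodes subunits of the respiratory chain, 2 ribosomal RNAs and the transfer RNAs for their translation. Together its genes took 6.91, 7.07, 8.32 and 6.02% of the counts in litters 1 to 4, a mean of 7.08% ± 0.945 (SD, n = 4), highest in litter 3 and lowest in litter 4. mt-Cytb, the complex III subunit cytochrome b, was the highest gene of all at 28997, 28895, 30529 and 23271 CPM. mt-Nd1, a complex I subunit, followed at 13466, 14010.1, 17584 and 13864 CPM, and mt-Co1, the catalytic subunit of complex IV, was at 7601, 6988, 8877 and 7561 CPM. Litter 3 was highest for all 3 genes. The large ribosomal RNA mt-Rnr2 was at 8071 ± 807 TPM, mt-Nd2 at 14632 ± 2579.5, mt-Nd4 at 8704 ± 1417 and mt-Nd5 at 5833 ± 816 TPM. Of the 37 mitochondrial genes 13 were detected, and 16 were listed at 0 in all 4 litters, among them the protein-coding mt-Atp6, mt-Atp8, mt-Co2 and mt-Co3. These lie on the same genome as the genes above, and the cause of their listing at 0 was not tested. The mitochondrial share therefore covers the counted genes only.

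Transcripts known from the oocyte were present at high levels. Stored copies and newly made ones cannot be told apart here. The list of maternal oocyte transcripts, genes of the growing and mature oocyte, had 69 of 72 members detected and took 3.61, 3.48, 4.18 and 3.00% of the counts in litters 1 to 4, a mean of 3.57% ± 0.483 (SD, n = 4). Its median member stood at 92.4 TPM. The list reached from Dppa3 and Oog3 at the top to the oocyte transcription factors Figla at 2.13 TPM and Sohlh1 at 2.22 TPM, which were named after their values were seen. Gdf9, a growth factor that the oocyte sends to its follicle cells, was at 56.8, 55.6, 56 and 45.6 CPM, with litter 4 the lowest. Zp3, the zona pellucida protein that binds sperm, was at 135, 130.0, 132 and 179.7 CPM, and here litter 4 was the highest. Secreted oocyte proteins and growth factors of the zona list were detected for 8 of 9 members, led by Oosp1 at 2305 ± 553 TPM, Oosp3 at 874 ± 201 TPM and Bmp15, a relative of Gdf9, at 533 ± 144 TPM.

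The subcortical maternal complex is a protein lattice under the oocyte membrane that embryos need to pass the 2-cell stage. All 8 of its listed genes were detected, at 0.343, 0.32, 0.356 and 0.203% of the counts in litters 1 to 4. Zbed3 was far above the others, at 2971, 2737, 3045 and 1727 CPM with litter 4 the lowest. The 8 genes summed to 3443, 3157, 3466 and 2105 CPM, so most of their share came from Zbed3. Nlrp5, also called Mater, varied little between litters at 119, 110.4, 109 and 109 CPM. Nlrp4f was at 99.2 ± 21.2 TPM, and Padi6, a peptidylarginine deiminase family member, at 86.5 ± 9.13 TPM.

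Factors that store and remove maternal RNA were both detected. Of the storage list, which holds proteins that bind stored messages and the cap, 21 of 21 members were detected. Eif4e, the cap-binding protein, was at 2083, 2087, 1915 and 2832 CPM, Ybx1, a general messenger RNA packaging protein, at 499.8 ± 59.5 TPM, Ythdf2, a reader of methylated adenosine that marks RNA for decay, at 178 ± 36.2 TPM, and the germ cell RNA-binding protein Dazl at 169.7 ± 44.1 TPM. Of the decay list 26 of 28 members were detected. Btg4 (ENSMUSG00000032056, chromosome 9), the adaptor that brings the CCR4-NOT deadenylase to maternal messages, was at 2440.3, 2085, 3329 and 1397 CPM, highest in litter 3 and lowest in litter 4, a 2.38-fold span. The deadenylase subunit Cnot7 was at 965, 872, 1031 and 747 CPM, with the same litters at the ends, and its close relative Cnot8 at 644, 599, 444 and 744 CPM, with those litters in reverse order. Cnot2, a scaffold subunit, was at 177 ± 18.9 TPM.

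Cell cycle regulators of meiotic exit and cleavage were detected for 30 of 31 members. The M-phase cyclin Ccnb1 was at 1901, 1808, 1614 and 2311 CPM and securin (Pttg1) at 788, 831, 979 and 804 CPM. The spindle kinase Aurka was at 722, 677, 524 and 643 CPM and the S-phase cyclin Ccne1 at 662, 627, 476 and 630.0 CPM. The highest litter was 1.43-fold the lowest for Ccnb1, 1.24-fold for Pttg1, 1.38-fold for Aurka and 1.39-fold for Ccne1, so none of these regulators differed much between litters.

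**Figure D2:**
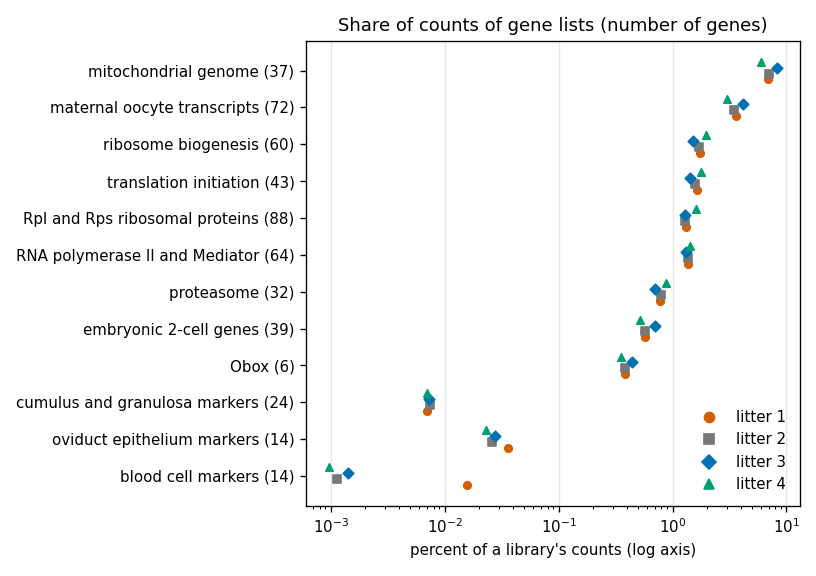
Percent of a library's counts on a log axis for 12 gene lists or families, 1 point per litter (n = 4), with the number of listed genes in parentheses. Mitochondrial genes and maternal transcripts take the largest shares with litter 3 highest and litter 4 lowest, and the blood cell markers set litter 1 apart.

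Transcripts of the embryonic 2-cell program were present, at a lower share than the maternal set. The lists differ in size, with 39 matched embryonic genes against 72 maternal ones. More symbols of the embryonic list than of the maternal list had no match, among them Dux, Zscan4a, Tcstv1 and Tdpoz1. Their counts are not in its share, so the 2 shares do not measure the 2 programs alike. The list of embryonic 2-cell genes had 35 of 39 members detected and 1, BC061212, at 0 counts in all litters. It took 0.578, 0.572, 0.695 and 0.517% of the counts in litters 1 to 4, a mean of 0.59% ± 0.0749 (SD, n = 4), and its median member stood at 71.3 TPM. E330034G19Rik led at 1105, 983, 1568 and 658 CPM, highest in litter 3 and lowest in litter 4. Usp17lb, a deubiquitinating enzyme of a repeated gene family, was at 577.5, 510.0, 561 and 523 CPM with hardly any spread. Arg2, the mitochondrial arginase, was at 168, 242, 314 and 196 CPM and Gm2016 at 225, 274, 441 and 177 CPM, again with litter 3 the highest.

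Zscan4d, of the telomere-linked Zscan4 cluster that marks 2-cell embryos, was at 205, 172, 273 and 159 CPM, a mean of 202 ± 51.3 (SD, n = 4). Zfp352, another zinc finger gene of this stage, was at 300.2, 268, 333 and 226 CPM. In both genes the order of the litters was the same, from litter 3 down through litters 1 and 2 to litter 4. Several of these families consist of near-identical copies (Zscan4, Usp17l, Obox, Pramef), and reads shared between copies may be lost or moved, so single members are uncertain. Beyond this list, 34 of 35 markers of early zygotic activation, mostly housekeeping genes, were detected. Pdxk, which activates vitamin B6, was at 795, 697, 509 and 997 CPM, the nucleolar protein Nolc1 at 522, 548, 403 and 721 CPM, Odc1, the first enzyme of polyamine synthesis, at 494, 418, 338 and 498 CPM and the translation elongation factor Eef1a1 at 286, 346, 288 and 331 CPM. Litter 4 was the highest for the first 3 of these and litter 3 the lowest.

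Regulators that act on the embryonic genome were mostly present. Of the listed activators 37 of 40 were detected, with Obox6 at 1733, 1563, 1199 and 2059 CPM and Obox5, its relative, at 1177, 1125, 1767 and 684 CPM. Litters 3 and 4 changed places between these relatives: litter 4 was highest for Obox6 and lowest for Obox5, and litter 3 the reverse. Dppa4 and Dppa2, partner proteins that prime early embryonic genes, were at 779, 691, 556 and 900.1 and 573, 439.8, 356 and 758 CPM. Gabpa, an ETS factor that binds housekeeping promoters, was at 1222, 1412, 1302 and 1593 CPM. Nr5a2, an orphan nuclear receptor that acts on early embryonic genes, was at 100.9, 94, 77.5 and 139.6 CPM, and at 46.1 ± 11 TPM. For Dppa4, Dppa2, Gabpa and Nr5a2 litter 4 was the highest, and for all of them but Gabpa litter 3 was the lowest.

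Repressors of the 2-cell program were present as well, with 36 of 37 detected. Rif1, which binds telomeres and late-replicating chromatin, was at 1317, 1296, 1365 and 1390.2 CPM, a span of only 1.07-fold. Rnf2, the ubiquitin ligase of Polycomb complex 1, was at 269 ± 31.6 TPM, nucleolin (Ncl) at 232 ± 40.02 TPM and the histone deacetylase Hdac1 at 194 ± 26.1 TPM. Trim28, the corepressor of zinc finger proteins on transposons, was at 78.3, 69.8, 66.4 and 94.8 CPM, and Kdm5b, a demethylase of histone H3 lysine 4, at 258, 253, 243 and 352 CPM, both highest in litter 4.

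Pluripotency factors were mixed. Of these 16 of 20 were detected, led by Dppa5a, an RNA-binding protein, at 719 ± 159 TPM, then Sall4 at 46.6 ± 6.02, Zfp42 at 44.5 ± 15.3 and Klf2 at 24 ± 3.17 TPM. Pou5f1, also called Oct4, was low at 12, 12.7, 12.2 and 8.36 CPM. Nanog had 0, 0.407, 1.63 and 0 CPM and Sox2 0.339, 0.226, 1.02 and 0.0433 CPM, so neither reached 1 CPM in all litters, and Nr0b1 had no count. Where a library has 0 counts, 3 counts remain possible, which is 0.127 to 0.136 CPM in these libraries. PCR copies are counted here as reads, so this limit covers counting error only. Markers of later lineages were detected for 5 of 22 genes, namely the trophoblast factors Tfap2c at 41.1, 47.9, 36.6 and 48.1 CPM and Gata3 at 12.3, 6.55, 14 and 5.76 CPM, Gata4 of the primitive endoderm at 31.3, 35.7, 35.6 and 35.7 CPM, and 2 further members. Cdx2, the trophectoderm factor, had 0.0424, 0, 0 and 0 CPM, and Elf5 and Myod1 had no count in any litter.

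To show what lies at the start of such genes, the RefSeq sequence of GRCm38.p6 from 250 bases before to 50 bases after the annotated start was taken, which held 17069 genes of the tables. The promoters of 2 maternal, 2 embryonic and 2 housekeeping genes follow, chosen as described members of each group, 5′ to 3′ on the strand of the gene. Capitals mark the motif TATAAA, the motif CCAAT (written ATTGG where it lies on the other strand) and the motif GGGCGG. Oog3 lies at chr4:144162602-144162901 on the minus strand, Btg4 at chr9:51115751-51116050 on the plus strand, Zscan4d at chr7:11166099-11166398 on the minus strand, Usp17lb at chr7:104842534-104842833 on the minus strand, Rplp0 at chr5:115559217-115559516 on the plus strand and Hprt at chrX:52987828-52988127 on the plus strand.
Oog3: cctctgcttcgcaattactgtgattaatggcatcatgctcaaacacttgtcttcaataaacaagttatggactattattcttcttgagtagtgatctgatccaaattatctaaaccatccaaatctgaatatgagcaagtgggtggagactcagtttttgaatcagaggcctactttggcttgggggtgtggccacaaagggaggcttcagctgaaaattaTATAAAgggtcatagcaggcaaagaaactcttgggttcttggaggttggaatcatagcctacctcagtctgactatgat
Btg4: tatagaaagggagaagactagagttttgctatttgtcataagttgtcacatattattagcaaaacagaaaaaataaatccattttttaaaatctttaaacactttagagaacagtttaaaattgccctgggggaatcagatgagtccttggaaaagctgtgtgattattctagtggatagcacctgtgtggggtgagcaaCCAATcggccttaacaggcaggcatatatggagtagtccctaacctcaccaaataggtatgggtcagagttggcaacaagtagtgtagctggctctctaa
Zscan4d: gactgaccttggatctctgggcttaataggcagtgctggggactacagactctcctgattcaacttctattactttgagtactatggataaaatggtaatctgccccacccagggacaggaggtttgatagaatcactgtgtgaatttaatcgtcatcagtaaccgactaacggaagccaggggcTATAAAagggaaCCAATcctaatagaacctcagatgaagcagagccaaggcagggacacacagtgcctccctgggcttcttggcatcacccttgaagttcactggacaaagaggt
Usp17lb: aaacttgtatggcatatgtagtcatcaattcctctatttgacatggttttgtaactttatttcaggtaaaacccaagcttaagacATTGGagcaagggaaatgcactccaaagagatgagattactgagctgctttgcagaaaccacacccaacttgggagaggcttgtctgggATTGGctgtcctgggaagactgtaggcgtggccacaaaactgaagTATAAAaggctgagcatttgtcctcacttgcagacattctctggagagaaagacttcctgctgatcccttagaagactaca
Rplp0: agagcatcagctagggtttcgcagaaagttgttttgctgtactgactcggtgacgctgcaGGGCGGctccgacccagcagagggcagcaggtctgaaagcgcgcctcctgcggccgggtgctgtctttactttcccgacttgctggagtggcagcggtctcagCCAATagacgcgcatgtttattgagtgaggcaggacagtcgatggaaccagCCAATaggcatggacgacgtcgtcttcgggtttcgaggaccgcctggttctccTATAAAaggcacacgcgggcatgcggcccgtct
Hprt: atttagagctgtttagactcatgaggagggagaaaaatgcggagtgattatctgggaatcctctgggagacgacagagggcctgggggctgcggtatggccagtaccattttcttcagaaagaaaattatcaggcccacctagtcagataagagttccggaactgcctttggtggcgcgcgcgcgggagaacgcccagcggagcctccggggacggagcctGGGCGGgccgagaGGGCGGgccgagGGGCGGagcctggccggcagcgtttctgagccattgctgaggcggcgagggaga

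The maternal and embryonic examples were poor in CpG, and the housekeeping examples were rich in it. Oog3 had 1 CpG in its 300 bases, Btg4 had 1, Usp17lb had 1 and Zscan4d had 3, while Rplp0 had 24 and Hprt had 22. TATAAA began 29 bases before the start in Oog3, 31 before it in Usp17lb and 65 before it in Zscan4d. Hprt held GGGCGG, the core of the site that Sp1 binds, 3 times, the first beginning 29 bases before its start and the last running across it, and Rplp0 held it once, with TATAAA 18 bases after its start. A match of letters is a description and shows no binding.

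Over all genes, promoters of genes with counts held GGGCGG more often than those of genes without. Oog3, Btg4 and Usp17lb ran against that trend, as they were poor in CpG and high in level. The motif TATAAA, the motif CCAAT, the motif GGGCGG, the motif GGATTA, the motif TAATTA and the motif CACGTG were each searched on both strands of the 300 bases, and none of the 6 contains another. GGGCGG was in 14.4% of 2788 promoters of genes without a count, in 39.3% of those under 1 CPM, in 56.8% from 1 to under 10 CPM, in 65.1% from 10 to under 100 CPM, in 66.8% from 100 to under 1000 CPM and in 67.9% of 78 promoters at 1000 CPM or more. TATAAA went the other way, from 25.7% of genes without a count to 8.02%, 6.35%, 7.57% and 7.69% in the 4 classes from 1 CPM upwards. TAATTA was in 9.65% of genes without a count and 2.56% of those at 1000 CPM or more, and CACGTG in 4.27% and 11.5%. The median number of CpG went from 2 in the lowest class to 24 in the highest. Over all 27025 promoters listed, GGGCGG was in 35.9%, TATAAA in 14.2%, CCAAT in 37.9%, GGATTA in 7.16%, TAATTA in 5.31% and CACGTG in 7.24%.

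For the stage-specific lists the shares were these. Of 57 maternal promoters 28.1% held GGGCGG and 10.5% TATAAA, with a median of 4 CpG. Of 22 embryonic 2-cell promoters 4.55% held GGGCGG, 27.3% TATAAA and 59.1% CCAAT, with a median of 2 CpG. The 62 ribosomal protein promoters held GGGCGG in 61.3% and TATAAA in 9.68%, with a median of 21.5 CpG. GGATTA, the letters of homeodomain sites of the bicoid type, was in 8.43% of promoters of genes without a count, 5.21% from 10 to under 100 CPM and 15.4% (12 of 78) at 1000 CPM or more, in 18.2% (4 of 22) of the embryonic list and in 6.60% of all genes of the tables. Members of the embryonic list share repeated sequence, so their promoters are not independent of each other.

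Genes linked to DNA methylation and demethylation were mostly detected. The median member of this list, which includes Dppa3, stood at 10.6 TPM. Of the listed genes 20 of 23 were detected. Zfp57, which keeps imprints methylated, was at 323, 253, 279 and 381 CPM. Dnmt1, the maintenance methyltransferase, was at 24.8, 19.7, 28.6 and 19.8 CPM, the de novo enzyme Dnmt3a at 79.3, 67.7, 63.7 and 79.8 CPM and Tet3, the oxidase of the zygote, at 30.2, 23.5, 37 and 24.3 CPM. Per length these 3 enzymes stood at 8.33 ± 1.55, 11.5 ± 1.23 and 4.56 ± 0.986 TPM, far below Zfp57 at 215 ± 35.9 TPM.

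The GADD45 genes, small stress-induced proteins linked to growth arrest, repair and DNA demethylation, were all detected. Gadd45b was the highest of the 3 at 38.5, 42.8, 61.6 and 35 CPM and 74.1 ± 19.7 TPM, with litter 3 above the others. Gadd45a was at 20.4, 15.4, 22.2 and 20.3 CPM and 29.3 ± 4.1 TPM. Gadd45g was at 5.55, 2.62, 6.01 and 1.26 CPM and 8.73 ± 5.19 TPM, and its litters spread 4.78-fold. Per length Gadd45b was above Gadd45a, and Gadd45a above Gadd45g, and the means of neighbours in this order lay further apart than the sum of their SDs.

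Chromatin genes were nearly complete. Of the histone lysine methylation enzymes 39 of 42 were detected and of the histone variants and chaperones 25 of 28. Suz12, a core subunit of Polycomb complex 2, was at 807, 873, 867 and 897 CPM and its partner Eed at 220.1, 186, 154 and 214 CPM. Setd2, which trimethylates lysine 36 of histone H3, was at 647, 585, 528 and 595 CPM, and Setdb2, a lysine 9 enzyme family member, at 148, 138, 145 and 146 CPM. Among histones the replacement variants H3f3b at 1595 ± 91 TPM, H2afz at 1341 ± 89.2 TPM and H2afv at 809.9 ± 59.9 TPM were the highest, beside the chaperone nucleophosmin (Npm1) at 1185 ± 271 TPM. Messages of replication-dependent histones carry no poly(A) tail as a rule, so this method is not suited to them.

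Transcription factor families differed widely in how many members were detected. Of 700 genes in 19 regulator families 393 (56.1%) were detected, beside 52.2% of all protein-coding genes. In these families 44 genes had no count in any litter, and of all 20175 protein-coding genes 3043 had none. All 6 of 6 Obox genes were detected, 7 of 8 E2F, 7 of 8 Smad, 13 of 17 Klf, 3 of 4 Tead and 5 of 7 Stat genes. At the other end stood Hox with 1 of 38, Sox with 3 of 18, Tbx with 4 of 16, Pax with 3 of 9 and Fox with 15 of 43. Between these lay nuclear receptors with 24 of 49, Ets with 12 of 22, AP-1 and ATF with 11 of 26, Pou with 7 of 13, Gata with 3 of 6, Irf with 5 of 9, Zscan with 9 of 15 and the large Zfp group with 255 of 386. Nuclear receptors, Ets, Pou, Gata and Irf were close to the share of all protein-coding genes.

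Single members stood out within families that were otherwise low. Hoxa7 was the 1 detected Hox gene, at 22.7, 20.7, 22.5 and 27.5 CPM, and 7 Hox genes, such as Hoxb8, Hoxc5, Hoxc8 and Hoxd3, had no count. Sox15, a close relative of Sox2, was the highest Sox gene at 19.7, 15.6, 13.5 and 19.5 CPM. Pou4f1, known from sensory neurons, was at 68.8, 71.6, 73.6 and 59.6 CPM and 38.8 ± 4.02 TPM, and Pou5f1 at 13.3 ± 2.54 TPM. Gata1, known from red blood cell formation, was at 50.2, 55.3, 46.3 and 63.2 CPM, highest in litter 4. Klf17 led the Klf genes at 288 ± 41.8 TPM, followed by Klf11 at 54.7 ± 9.25 TPM. Foxr1 at 213 ± 33.7 TPM and Foxj3 at 88.1 ± 3.97 TPM led the Fox genes.

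Other regulators with high levels were zinc finger, ETS, E2F and bZIP genes. Zfp706, a small zinc finger protein, was at 1218, 1287, 1346 and 1316 CPM with little spread. Spic, an ETS factor of the PU.1 type, was at 1059.8, 682, 632 and 1222 CPM, with litters 1 and 4 above litters 2 and 3. E2f5, of the E2F family that controls the cell cycle, was at 422, 415, 512 and 262 CPM with litter 4 the lowest, and Zscan5b at 422, 408, 380.3 and 437 CPM. The bZIP factors Atf1 and Atf2 were at 412, 418, 412 and 469.6 and 725, 803, 717 and 753 CPM, Irf1 at 30.2 ± 4.76 TPM, Stat4 at 41.4 ± 6.67 TPM, Smad4 at 22.8 ± 1.85 TPM, Tbx19 at 16.5 ± 2.41 TPM and Tead4, the trophectoderm factor, at 6.53 ± 2.26 TPM.

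**Figure D3:**
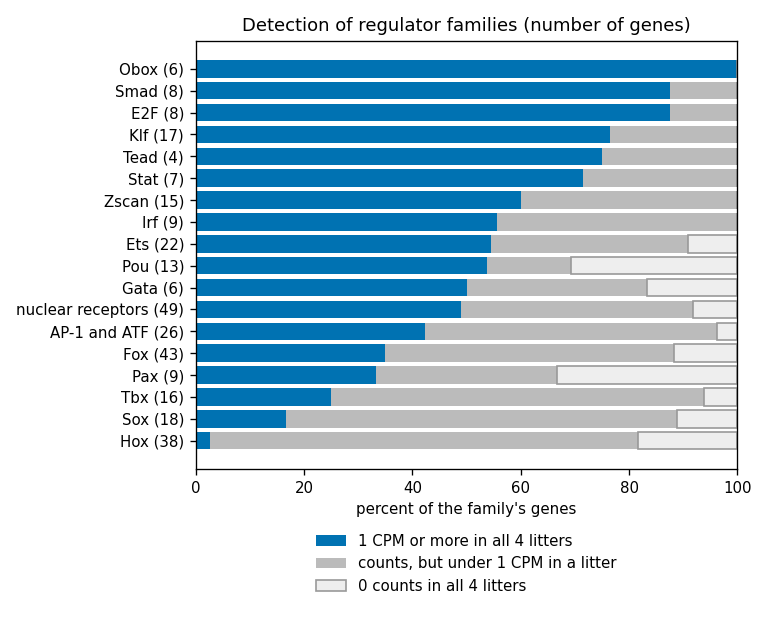
Percent of genes in 18 regulator families by detection, with the number of genes in parentheses; blue bars are genes at 1 CPM or more in all 4 litters, grey bars genes with counts but under 1 CPM in a litter, and pale bars genes with no count. Obox, E2F and Smad families are nearly complete, and Hox has 1 detected gene of 38.

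The machinery of protein synthesis was detected nearly in full. All 60 ribosome biogenesis genes were detected and took 1.75, 1.72, 1.52 and 1.95% of the counts in litters 1 to 4, and 84 of 88 genes of ribosomal proteins took 1.31, 1.29, 1.28 and 1.61%. Brix1, needed to assemble the large subunit, was at 1935, 1968, 1787 and 2383 CPM, the snoRNP protein Nhp2 at 577.1, 556, 549 and 632 CPM and the small subunit processome protein Imp3 at 258, 279, 248 and 276 CPM. Rplp0 was at 2057, 2315, 2319.5 and 2577 CPM, followed by Rps27l at 1374 ± 141 TPM and Rps3a1 at 1039 ± 159 TPM. Litter 4 was the highest for Brix1, Nhp2 and Rplp0. Many ribosomal protein genes have pseudogene copies, so reads of single members may be misplaced. Translation initiation factors were detected for 42 of 43 genes, led by Eif1 at 1621 ± 157 TPM, Eif5a at 1241 ± 109 TPM, Eif4e at 979 ± 163 TPM and Eif5 at 763 ± 92.5 TPM.

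For protein quality control 32 of 32 proteasome genes and 28 of 30 heat shock genes were detected. The core subunit Psma6 was at 593, 547, 461 and 832 CPM and the lid subunit Psmd7 at 712, 709, 576.6 and 840.5 CPM, both highest in litter 4 and lowest in litter 3. The chaperonin subunits Cct8 and Tcp1 were at 915 ± 93.4 and 425 ± 62.2 TPM, and the HSP90 genes Hsp90ab1 and Hsp90aa1 at 298 ± 82.3 and 293 ± 29.6 TPM. Hspa1a, the heat-inducible HSP70, was low at 0.678, 0.813, 2.43 and 0.563 CPM. The immediate early genes, which respond to handling and growth signals, had 9 of 21 members detected (42.9%, beside 52.2% of all protein-coding genes). The highest were Jund at 15.4 TPM, Dusp1 at 12.9, Zfp36 at 11.7 and Ier3 at 10.2 TPM.

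Transcription, splicing and replication genes were detected for 62 of 64 members of RNA polymerase II, its general factors and Mediator, 43 of 43 spliceosome genes and 42 of 44 replication genes. Polr2d, a polymerase subunit, was at 1877 ± 309 TPM and Taf9, a TFIID subunit, at 1704 ± 249.9 TPM. The splicing factor Srsf5 was at 495 ± 81.1 TPM and the core protein Snrpe at 456 ± 33.4 TPM. Orc6, of the origin recognition complex, was at 1058, 1037, 1090.0 and 1062 CPM with almost no spread, and Cdc45, of the replicative helicase, at 434, 436, 341 and 559 CPM.

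Cleavage embryos are known to live on pyruvate and respiration more than on glucose, and genes for both were detected. Of the nuclear respiratory chain genes 74 of 77 were detected, led by Cox8a at 1543 ± 141 TPM, Cox6a1 at 776 ± 47.7 TPM and Cox4i1 at 652 ± 77.7 TPM, all subunits of complex IV. Of the genes of glycolysis and pyruvate use 24 of 35 were detected. The 4 highest of these were Ldhb, the lactate dehydrogenase form that favours pyruvate, at 369, 333, 639 and 308 CPM with litter 3 the highest, Pdhb of the pyruvate dehydrogenase complex at 271 ± 13.8 TPM, and the mitochondrial pyruvate carriers Mpc2 at 132 ± 4.98 TPM and Mpc1 at 125 ± 9.48 TPM.

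The p53 list had 17 of 23 members detected. Mdm4 was at 1098 ± 74.1 TPM, Tigar, a target that restrains glycolysis, at 340.2 ± 47.3 TPM and the p53 ubiquitin ligase Mdm2 at 101.3 ± 6.9 TPM. Of the imprinted genes 15 of 31 (48.4%) were detected, close to the 52.2% of protein-coding genes, and Mkrn3 had no count. Phlda2, a growth restrictor expressed from the maternal allele, was the highest at 66.2, 124, 204 and 123 CPM, lowest in litter 1 and highest in litter 3. Usp29, expressed from the paternal allele, was at 146, 107, 93.3 and 152 CPM.

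Transcripts of the Y chromosome were found in all 4 pools. Uty was at 40.8, 61.5, 32.9 and 44.2 CPM, Eif2s3y at 26.1, 16.6, 12.3 and 12.3 CPM and Ddx3y at 3.3, 8.59, 1.24 and 2.04 CPM, while Sry, the testis determining gene, had no count. Xist, the RNA that coats the inactive X chromosome and is made from the paternal copy in early female embryos, was low at 3.9, 0.859, 1.5 and 2.12 CPM. Ddx3y was highest in litter 2 and Eif2s3y in litter 1, so these genes did not rank the litters alike.

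Most markers of other cell types that a pool of embryos could carry were not detected. The share detected was 16.7% of the cumulus and granulosa list, 28.6% of the sperm list, 42.9% of the oviduct list and 21.4% of the blood cell list. Of all protein-coding genes 52.2% were detected, and the oviduct list lay closest to that share. Of the cumulus and granulosa markers, of the follicle cells that hyaluronidase removes, 4 of 24 were detected and 7 had no count in any litter, among them Ptx3, Ereg, Inhba and Amh. Their summed level was 69.8, 73.4, 70.7 and 72.6 CPM in litters 1 to 4, most of it from Serpine2, a protease inhibitor, at 31, 40.1, 31.1 and 39.8 CPM and Amhr2, the receptor of anti-Müllerian hormone, at 27.7, 23.9, 25.2 and 21.7 CPM. Has2, the hyaluronan synthase of expanding cumulus cells, had 0, 0.362, 0.265 and 1.17 CPM.

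Sperm markers were detected for 6 of 21 genes, with a summed level of 98.3, 104, 110.2 and 114 CPM. Odf2 at 56.1, 61.3, 64.2 and 61.4 CPM, which also serves centrosomes, and Ldhc, the germ cell lactate dehydrogenase, at 28.2, 25.9, 30.4 and 37.9 CPM made up most of that sum, whereas the sperm protamine Prm1 had 0, 0.542, 0.221 and 0.0867 CPM and Smcp no count. Oviduct markers were detected for 6 of 14 genes, with a sum of 358, 259.5, 271 and 238 CPM, of which the adhesion protein Epcam gave 247, 193, 194 and 185 CPM, whereas the ciliated cell factor Foxj1 had 0, 0, 0.0442 and 0 CPM. Blood cell markers summed to 158, 11.3, 14 and 9.97 CPM, and Ptprc, the marker of white blood cells, had 0.0424, 0, 0 and 0 CPM. The globins were high in litter 1 alone, while the other 3 marker lists had members above 20 CPM in every litter.

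The litters resembled each other closely for most genes. Among the 7416 genes of mean 10 CPM or more the median SD of log2 CPM over the litters was 0.22, with quartiles of 0.15 and 0.31, against 0.04 that counting alone would give. The biological coefficient of variation estimated by edgeR for the 4 libraries was 0.252. Without litter 1 the median SD was 0.218 and the coefficient 0.244. In 618 genes (8.33%) the highest litter was at least 2-fold above the lowest. The share fell from 15.8% of genes at 10 to under 30 CPM to 2.12% at 100 to under 300 CPM. Above that it fell no further, with 3.81% at 1000 CPM or more. With 3 litters in place of 4 the count was 401 (litter 1 left out), 530 (litter 2), 291 (litter 3) and 301 (litter 4). It fell by more than 1.5-fold without litter 1, 3 or 4. Fewer litters alone would lower the count, so these falls do not measure the part of a single litter. A single litter stood apart from the other 3, by a gap that took more of the whole range than Dixon's critical value for 4 samples, in 388 genes (5.23%), which is close to the 1 in 20 that chance gives. That litter was most often litter 4, the highest in 110 of these genes and the lowest in 61.

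The genes that varied most were globins and Ovgp1, high in litter 1, and then a mixed set. Hbb-bs had an SD of log2 CPM of 4.20, Hba-a1 of 2.28 and Ovgp1 of 1.89. The next was Trim36, a ubiquitin ligase, at 3.35, 22.7, 21.1 and 8.32 CPM, low in litters 1 and 4. Nipal1, a magnesium transporter, was at 89, 55.2, 27.5 and 134 CPM, highest in litter 4 and lowest in litter 3. Ccnh, the cyclin subunit of the kinase that activates other cyclin kinases, was at 104, 57.5, 26.3 and 83 CPM, also lowest in litter 3. Gli3, a transcription factor of Hedgehog signalling, was at 64.7, 111, 110.2 and 30.5 CPM and H2afx, the histone variant that marks DNA breaks, at 21, 68, 55.9 and 20.0 CPM, both high in litters 2 and 3 and low in litter 4.

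Further genes with a large spread differed in which litter was the odd one. Klf6 was at 13.9, 15.1, 17.2 and 3.94 CPM, low in litter 4, Cldn7, a tight junction protein, at 5.13, 17.2, 17.1 and 18.8 CPM, low in litter 1, and Chrna10, an acetylcholine receptor subunit, at 11.4, 11, 12.2 and 37.1 CPM, high in litter 4. Mid1, a ubiquitin ligase on the X chromosome, was at 39.99, 13.2, 45.7 and 13.7 CPM, high in litters 1 and 3. Apobec3, an antiviral deaminase, was at 15.1, 14.1, 7.64 and 34.5 CPM, Hexim1, an inhibitor of the elongation kinase P-TEFb, at 3.56, 13.6, 16.7 and 8.41 CPM, Pif1, a DNA helicase, at 5.85, 15.8, 16.8 and 5.33 CPM and Plk3, a stress-linked polo kinase, at 23.4, 19.3, 8.08 and 7.67 CPM. Tex101, a germ cell surface protein, was at 21, 62, 74.5 and 54.4 CPM, low in litter 1, Nxf2, an RNA export factor on the X chromosome, at 14, 5.83, 20.9 and 20.4 CPM, low in litter 2, and Psg17, of the pregnancy glycoproteins, at 24.3, 11.3, 12.4 and 5.81 CPM. Tmem159, a lipid droplet protein, was at 29.1, 12.4, 9.01 and 26.2 CPM. The 5 steadiest genes of mean 10 CPM or more were Ddx43, an RNA helicase, Tmem131l, the mitochondrial ribosomal protein Mrpl12, the proton pump subunit Atp6v1d and the actin regulator Arpc5l, with the highest litter 1.02-fold to 1.03-fold the lowest.

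**Figure D4:**
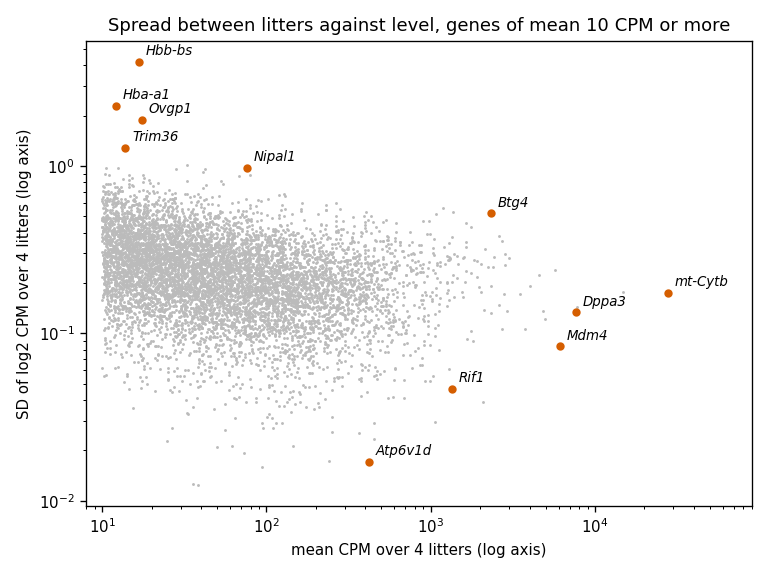
SD of log2 CPM over the 4 litters against mean CPM, both on log axes, 1 grey point per gene of mean 10 CPM or more (7416 genes), with named genes in orange. The median SD falls from 0.276 at 10 to under 30 CPM to 0.180 at 100 to under 300 CPM, and is 0.214 at 1000 CPM or more. Hbb-bs, Hba-a1 and Ovgp1 lie far above the cloud, and Btg4 is high for its level.

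Spread was not even over the gene lists. Of the embryonic 2-cell genes 9 of 28 with a mean of 10 CPM or more had a 2-fold range, and of the maternal transcripts 5 of 65, beside the 8.33% of all genes. None of 32 proteasome genes did, and of the ribosomal proteins 1 of 83, of the ribosome biogenesis genes 2 of 60 and of the nuclear respiratory chain 1 of 67. Lists differ in level and share gene copies, so these counts were not compared by a test.

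The main line of difference ran between litters 3 and 4. In a principal component analysis of the 7416 genes the first component held 51.0% of the variance and set litter 3 against litter 4, with litters 1 and 2 between, the second held 32.5% and set litter 1 against the others, and the third 16.5%. Litter 3 was at least 2-fold above litter 4 in 206 genes and at least 2-fold below it in 124. Over all 7416 genes litter 3 was the higher in 46.6%, and the median difference was -0.04 on the log2 scale.

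Most maternal oocyte transcripts and most of the embryonic 2-cell list were higher in litter 3, and most genes of ribosomes, proteasomes and early zygotic activation were higher in litter 4. Of the maternal oocyte transcripts of mean 10 CPM or more 53 of 65 were higher in litter 3, of the embryonic 2-cell genes 19 of 28, of the Obox genes 5 of 6 and of the mitochondrial genes 9 of 9. In the opposite direction, litter 3 was the higher for 3 of 83 ribosomal proteins, 4 of 60 ribosome biogenesis genes, 3 of 32 proteasome genes and 6 of 40 spliceosome genes. It was also the higher for 9 of 32 early zygotic activation markers, 10 of 32 activators of the embryonic genome and 8 of 32 repressors of the 2-cell program.

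The mean log2 CPM of a list, taken as its deviation from the mean of the 4 litters, showed the size of these differences. The deviations of the embryonic 2-cell genes were -0.05, 0.04, 0.28 and -0.27 in litters 1 to 4, and those of the maternal transcripts 0.02, 0.00, 0.20 and -0.22. The values of the mitochondrial genes were -0.02, -0.08, 0.19 and -0.10. Litter 3 was the highest and litter 4 the lowest in all 3 lists, though for the mitochondrial genes litter 2 lay beside litter 4. Ribosomal proteins gave -0.03, -0.15, -0.14 and 0.31, so that litter 4 was high against 3 litters closer together, whereas ribosome biogenesis gave 0.05, 0.01, -0.23 and 0.17 and the proteasome -0.02, 0.02, -0.19 and 0.19, with litters 1 and 2 again between. Lists of embryonic genes did not run alike: the early zygotic activation markers gave -0.03, -0.03, -0.02 and 0.08 and the activators -0.07, -0.01, -0.01 and 0.09, both highest in litter 4. The maternal RNA decay list barely moved, at 0.03, -0.00, -0.03 and 0.01, although its member Btg4 did.

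Gene length, base composition and level were set along this line, without a test. Genes were split into 5 groups of equal size by their difference between litters 3 and 4. From the litter 4 end to the litter 3 end, the median longest transcript was 3135, 3159.5, 3481.5, 3613.5 and 3080 bases. The median GC content was 47.9, 48.3, 47.4, 47.4 and 47.2%, and the median of most exons 10, 9, 9, 10 and 8. The median CPM was 62.8 in the fifth most shifted to litter 4 and 30.7 in the fifth most shifted to litter 3. The pools of litters 3 and 4 held 25 embryos each. The age of the embryos within the window of collection, and any batch of handling beyond the shared flow cell, are not given in the sources used here, and their part in the result was not tested.

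**Figure D5:**
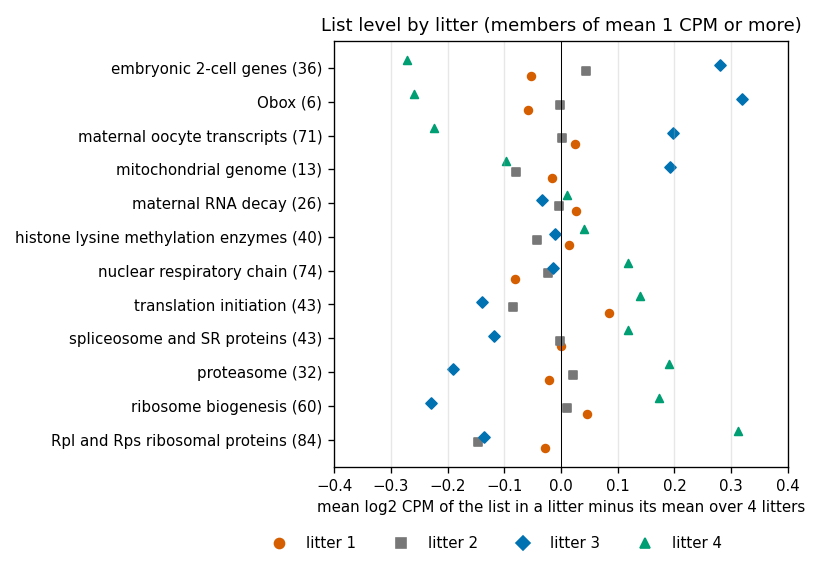
Mean log2 CPM of the members of each list in a litter minus its mean over the 4 litters, 1 point per litter, for members of mean 1 CPM or more (their number in parentheses). Litter 3 is highest and litter 4 lowest for embryonic 2-cell genes, Obox genes, maternal transcripts and the mitochondrial genome, and litter 4 is highest for the proteasome, ribosome biogenesis and ribosomal proteins.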

How the data were processed

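The 4 wild-type libraries of polyadenylated RNA were read from the deposited tables of whole-number counts per Ensembl gene, not normalized. The SMART-Seq v4 kit gave cDNA in 11 PCR cycles and the Ovation Ultralow kit gave libraries in 11 more, per the labels' protocols, and all libraries of the series shared 1 NextSeq flow cell (single reads, 85 cycles). No step as described marks molecules, so reads include PCR copies. The submitters' processing notes name STAR 2.5.2b and, from Subread, featureCounts 1.5.1, beside DESeq2 1.18.1, FastQC 0.11.5 and bcl2fastq 2.19.1, and the builds NCBIM37 and mm9. Strand and multi-mapping settings are not given in the sources used here.

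Symbols, types and exon lengths were taken from the GENCODE M21 annotation of GRCm38, which is newer than the build of the counts. Of 37310 identifiers 4690 had no symbol there and took 0.737% to 0.868% of a library's counts; they stayed in the totals. CPM was scaled by TMM within the 4 libraries (edgeR 4.0.16, R 4.3.3, 12969 genes kept by filterByExpr, factors 0.965 to 1.03), with a prior count of 2 before log2. TPM used the union of exons. Spread was measured for genes of mean 10 CPM or more. Pseudogenes were matched to coding transcripts with blastn 2.17.0. The steps were tested on simulated data. Replicates are separate litters, and values are mean ± SD. With 1 group and no contrast, no groups were tested and no p-value is given; Dixon's critical value and the chi-square ratio describe the spread.

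The 33 lists and 21 families, 38 of whose 1090 list symbols were not matched, and the rule for naming genes were chosen with earlier results of these data known. The rule takes up to 20 genes of highest TPM, up to 4 members of highest TPM and up to 4 at 0 per list or family, 20 of largest and 5 of smallest SD, and a set of early embryo regulators and marker genes. Names beyond it were picked after seeing their values. Some genes that the rule names are not reported here. Alternatives were other scalings, filters, prior counts, gene lengths and totals, and each library left out.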

Additional observations from a re-analysis of the deposited data

Results flagged for a closer look

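A value is listed here where 1 of the 4 litters lay so far from the rest that its gap to the nearest took more of the whole range than Dixon's critical value for 4 samples. The number given is that share of the range. Chance gives about 1 in 20 such cases: of 9 library measures, 54 lists and families and 190 named genes, 1, 6 and 29 were found, and 20 of the named genes had been chosen for their spread.

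Litter 1 was far above the others in the blood cell markers (0.968), in Hbb-bs (0.999), Hba-a1 (0.972) and Ovgp1 (0.947), and also in Epcam (0.849), Irf1 (0.85), Mdm4 (0.845) and the share of histone lysine methylation enzymes (0.957), the last at 0.42% against 0.411%. It was far below them in Cldn7 (0.878), Jund (0.902) and Gata4 (0.968), and with Gata4 in the share of the Gata family (0.867).

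Litter 4 was far above the others in the share of ribosomal proteins (0.918, at 1.61% against 1.28% to 1.31%), of maternal RNA storage (0.877) and of repressors of the 2-cell program (0.83). For maternal RNA storage the share did not speak for most members. The mean log2 CPM of that list was lowest in litter 4, at 5.28, 5.23, 5.34 and 5.21 in litters 1 to 4. Of its members of mean 10 CPM or more, 10 of 15 were higher in litter 3 than in litter 4. Single genes with litter 4 on top were Rps3a1 (0.8998), Eif1 (0.938), Zp3 (0.898), Kdm5b (0.864), Rnf2 (0.839), Foxr1 (0.857), Atf1 (0.901), Chrna10 (0.954) and Mbp (0.857). Litter 4 was the low one in Gdf9 (0.888), Pou5f1 (0.855) and Dusp1 (0.918).

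Litter 3 was far above the others in the share of the first 100 genes (0.843, at 24.9% against 23.3% to 23.5%), in mt-Nd1 (0.868) and mt-Nd2 (0.86), and in the stress-induced Hspa1a (0.866) and Ier3 (0.834). Litter 2 was the low one in Mrpl12 (0.947), by a trifle. Cdx2, Ptprc and Foxj1 had counts in 1 litter alone (a share of 1 each), and these were under the level that 0 counts allow.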

How the results depend on the processing

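Of 149 alternative values for 22 results 133 stayed within the replicate spread, or within 1.5 times for counts, and none reversed a sign. The sign was looked at only for the differences between litters 3 and 4. For shares of counts, those of the first 10 and 100 genes included, leaving 1 litter out cannot move the mean by its SD. Those alternatives could only stay, so the number that stayed is no measure of how firm the shares are. With a minimum of 10 CPM in every library 6781 genes were detected. Without mitochondrially encoded genes in the total the first 10 genes held 4.47% and the first 100 18.9%; by TPM they held 20.9% and 39.0%, and 252.25 genes held 50%. The 618 genes with a 2-fold range became 3715 at a mean of 1 CPM, 111 at a mean of 50 CPM and 6544 with no filter on low counts, and 291 to 530 with 1 litter left out, which fewer litters alone would lower. The 388 genes with 1 litter apart became 186 at a mean of 50 CPM. The median SD of log2 CPM was 0.189 at a mean of 50 CPM and 0.186 to 0.24 with 1 litter left out. The difference between litters 3 and 4 has no value where either is left out; for the 8 lists looked at it kept its sign under each other alternative run. No paired analysis was possible because only 1 group was described and no groups were compared. Genes under about 1 CPM rest on some 20 counts or fewer, so their spread is limited by depth.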

Other observations

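Constant regions of antibody genes were counted in all 4 litters, although the white blood cell marker Ptprc was near 0. Ighg2b was at 171, 195, 244 and 132 CPM in litters 1 to 4 and Ighg3 at 38.5, 43, 48.2 and 34 CPM, both highest in litter 3 and lowest in litter 4, whereas Ptprc had 0.0424, 0, 0 and 0 CPM. Both were named after their values were seen, and where these reads come from was not tested.

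Mbp, the myelin basic protein, was at 0.381, 0.362, 1.37 and 7.41 CPM in litters 1 to 4 and highest in litter 4. This name too was chosen after its values were seen.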
